A study of Mus musculus with 8 samples.

Results

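Rab proteins, the largest family of small GTPases, mark the membranes of the secretory and endosomal system, and the Rab genes described here were read from a table of raw gene counts of mouse brain. A gene counted as a Rab gene if its Ensembl identifier maps to a symbol made of Rab, a number and at most a letter from a to d and a further digit, which leaves out Rab-like genes and Rab regulators. Of the 22430 genes in the table, 59 met this rule, 56 of them had at least 1 count and 38 had a mean count over 5 across all libraries. These 38 were tested, and the other 21 are given below by their counts alone.

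The samples are brain hemispheres of 8 male C57Bl/6JRj mice, an inbred strain, of which 4 were young adults of 6 months (6m) and 4 were aged, at 24 months (24m). Each mouse gave 1 library of long reads from an Oxford Nanopore MinION, and the comparison asks which mRNAs differ between the ages. By the paper's methods RNA molecules were read directly, while the sample labels describe a cDNA kit, so the kit is uncertain. Total counts on genes were 843706, 573152, 838483 and 818963 in 6m replicates 1 to 4 and 660398, 903595, 742951 and 1255424 in 24m replicates 1 to 4.

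A Rab protein cycles between a GTP-bound form, which sits on a membrane and recruits effector proteins, and a GDP-bound form, which a GDP dissociation inhibitor (GDI) keeps in the cytosol. Guanine nucleotide exchange factors (GEFs) load GTP and so switch a Rab on at its membrane, and GTPase-activating proteins (GAPs), most of them with a TBC domain, switch it off. In neurons the family serves synaptic vesicle release, receptor recycling, axonal transport of endosomes and lysosomal turnover, and several members are phosphorylated by the kinase LRRK2, which is mutated in familial Parkinson's disease.

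The libraries separated by age before any Rab gene was singled out. On principal component 1, which held 39.4% of the variance of log2 counts relative to library size (CPM) over tested genes, the 6m libraries lay between -27.8 and -21.2 and the 24m libraries between 17.9 and 32.6. One library stood apart: on component 2, with 17.2% of the variance, 24m replicate 1 lay at 38.4 and the other 7 between -17.5 and 7.48. For this reason the main counts are given with and without it. Each pair of libraries differed by more than counting noise. The chi-square per degree of freedom between any pair was from 1.19 to 5.25 over tested genes, where counting noise alone gives 1.

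Markers of brain cells were in place in both ages. The 6 neuronal markers added up to 2212, 2199, 2326 and 2209 CPM at 6m and 2645, 2601, 2572 and 2509.8 CPM at 24m. By mean, the tubulin gene Tubb3 was the most abundant of them at 6m, with 934 CPM against 650 for Eno2. At 24m Eno2 came first, with 854 CPM against 762 for Tubb3. Mbp, 1 of several markers of oligodendrocytes, had 1149.6, 846, 948 and 1346 CPM at 6m and 1989, 1807, 1971 and 1314 CPM at 24m. The neuronal sum was higher in every 24m library than in any 6m library, while for Mbp 24m replicate 4 lay below the highest 6m library. Tubb3 itself had 921, 935, 939.7 and 941 CPM at 6m and 974, 690.3, 671 and 714 CPM at 24m, at a log2FC of -0.30 ± 0.10 (SE), opposite in sign to the other 5 neuronal markers. Haemoglobin mRNAs from blood went the other way from the neuronal sum and added up to 6979, 7919.9, 10009 and 6073 CPM at 6m and 6265, 3946, 4471 and 3344 CPM at 24m, with 24m replicate 1 above the lowest 6m library. In RNA from a whole hemisphere, more cells of a type and more RNA per cell cannot be told apart.

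Rab3a dominated the family. This gene (ENSMUSG00000031840, chr8:71207238-71211333, plus strand), the main Rab of synaptic vesicles, had 1425, 1427, 1368 and 1411 CPM at 6m and 1491, 1325, 1282 and 1184 CPM at 24m, on library sizes scaled by the trimmed mean of M-values (TMM). Its share of all Rab counts was between 38.5% and 40.8% in the 6m libraries and between 30.1% and 38.0% in the 24m libraries, so the groups did not overlap. Divided by the length of the canonical transcript, Rab3a stood at 945 ± 67.7 CPM per kilobase (SD over 8 libraries). This division favours short transcripts, such as those of Rab3a (1443 bases), Rab4b (1219 bases) and Rab24 (1203 bases). Whether counts of these long reads grow with transcript length was not tested, so the order per kilobase is not given as an order of abundance. On the same scale of CPM per kilobase, the next were Rab4b at 122 ± 18.7 and Rab24 at 112 ± 30.03, which lay within each other's spread. Rab28, Rab7 and Rab1b came next, in that order at 6m, with means of 59.8, 56.8 and 50.8, while at 24m the order was Rab7, Rab1b and Rab28, with 86.8, 80.8 and 52.7. The lowest tested member was Rab2b at 6m, with 0.967, and Rab3c at 24m, with 2.18 CPM per kilobase. By CPM without the length, Rab11b, Rab4b and Rab24 followed Rab3a at 6m, with means of 216, 163 and 161. At 24m Rab11b, Rab5c and Rab7 followed it, with 281, 196 and 193 CPM. The lowest tested member by CPM was Rab2b at 6m, with 2.81, and Rab29 at 24m, with 7.17.

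**Figure D1:**
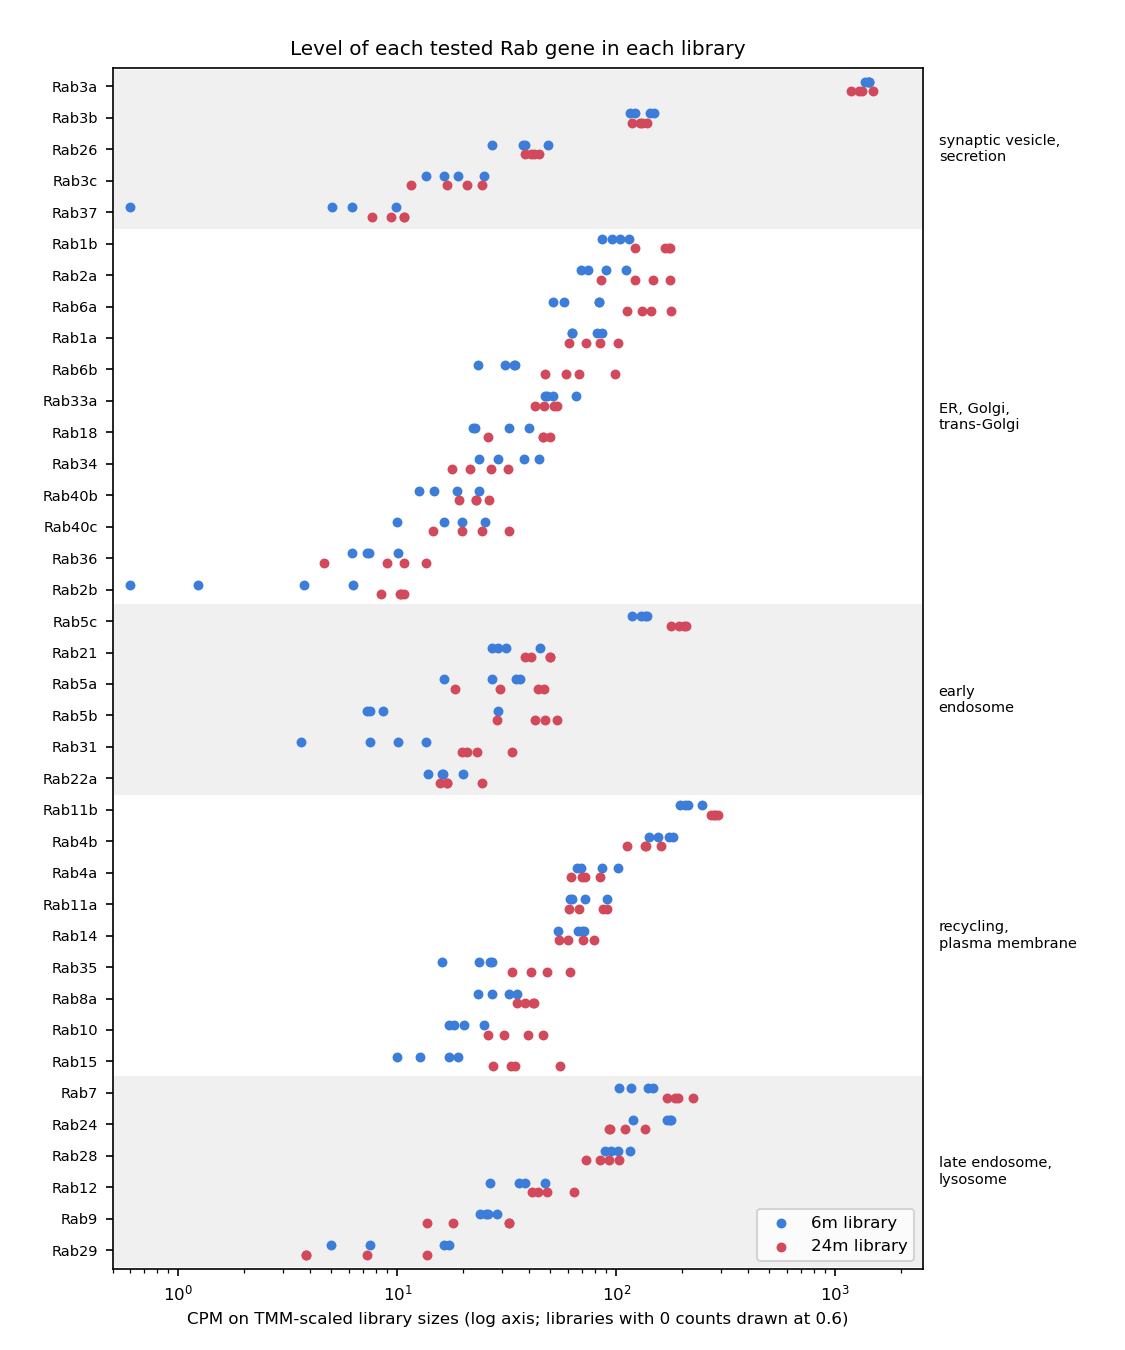
CPM of the 38 tested Rab genes in each library on a log axis, grouped by the membrane they serve, with 6m libraries in blue and 24m libraries in red. Rab3a stands alone above 1000 CPM. Rab6a, Rab6b, Rab15 and Rab31 are among the 11 genes that have all 4 red points to the right of all 4 blue points.

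Of the 38 tested Rab genes, 13 changed between the ages, 12 of them higher and 1 lower at 24m. A gene changed if the quasi-likelihood test of edgeR gave a p, adjusted by Benjamini-Hochberg over all 9375 tested genes, of 0.05 or less, and the log2 fold change (log2FC) was 0.58 or more in size. By the same rule 14.5% of all tested genes changed, 10.3% higher and 4.17% lower, against 34.2%, 31.6% and 2.63% of the Rab genes. Among the 12, Rab2b exceeded the mean count of 5 only through the 24m libraries, as given below. The median log2FC was 0.38 over the Rab genes and -0.0034 over all tested genes, and 27 Rab genes (71.1%) had a positive value, against 49.7% of all tested genes. The libraries of the ages did not overlap for 11 Rab genes, all of them higher at 24m, while 21.1% of all tested genes did not overlap in either direction. Without 24m replicate 1, 14 Rab genes changed, 13 of them higher, with a median of 0.41, and 1594 of all tested genes (16.8%) changed. Without 24m replicate 4, the deepest library, 8 of 37 changed, 7 of them higher and 1 lower, and 13.3% of all tested genes changed. On library sizes alone 13 Rab genes were called higher and 0 lower, beside 13.0% of all tested genes higher and 15.4% changed.

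**Figure D2:**
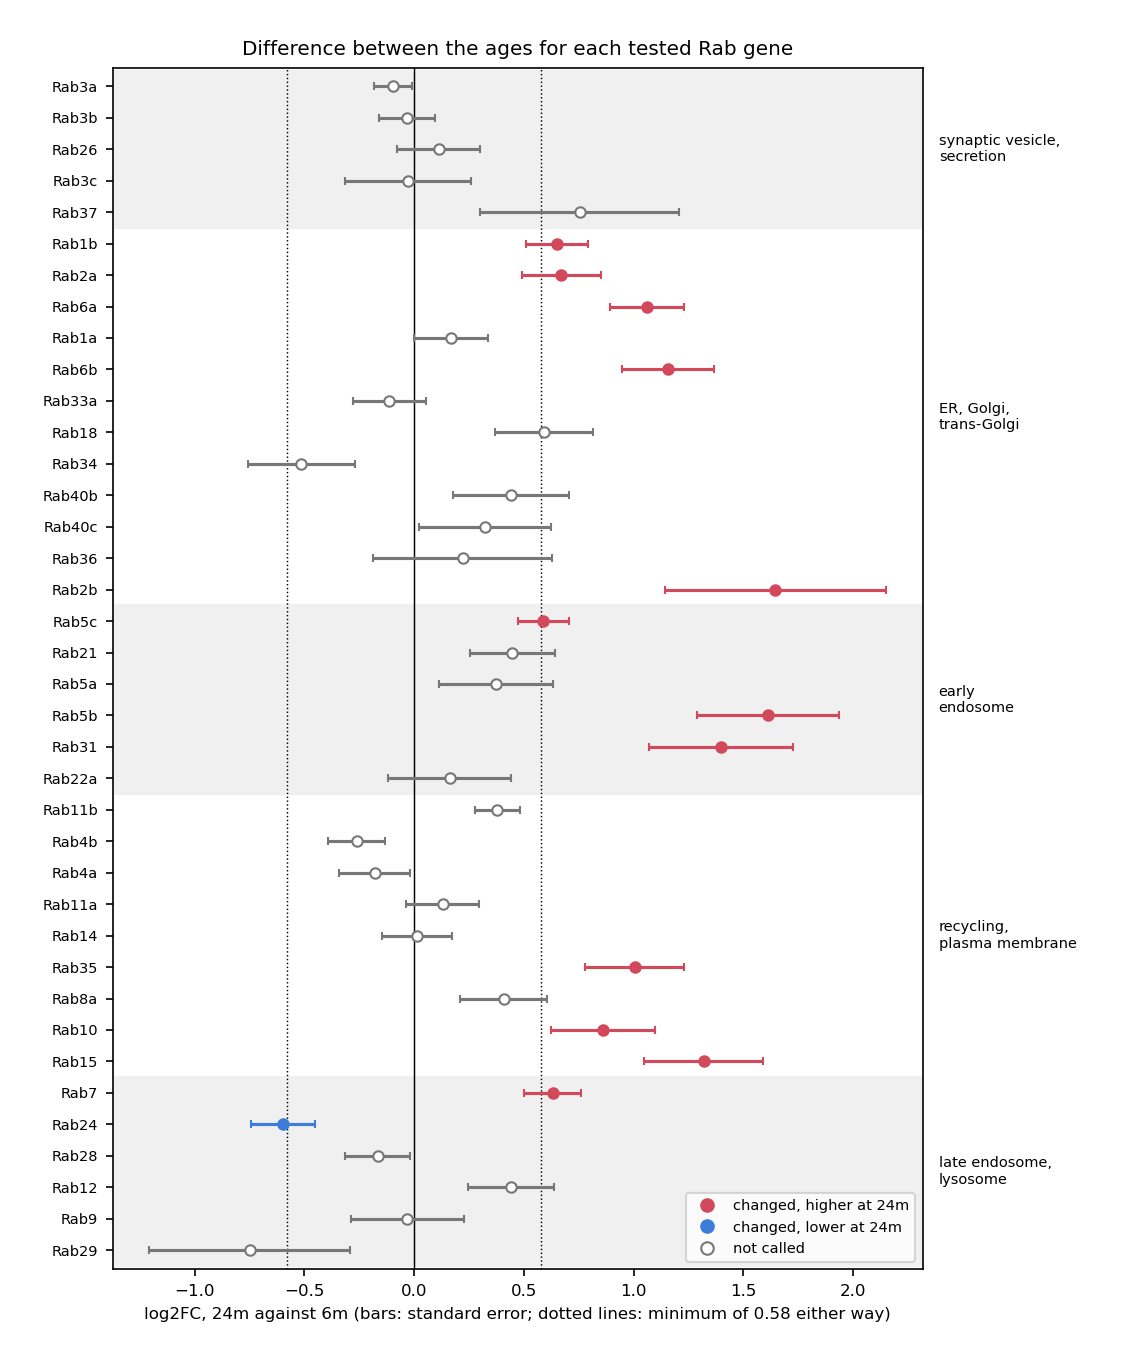
Log2FC between 24m and 6m for each tested Rab gene with its standard error, grouped by the membrane it serves; filled points changed and open points were not called. The 12 red points lie between 0.59 and 1.65, the 1 blue point is Rab24 at -0.60, and none of the 5 genes of synaptic vesicles and secretion is filled.

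None of the 5 tested Rab genes of regulated secretion passed edgeR's quasi-likelihood test, beside 34.2% of the tested Rab genes and 14.5% of all tested genes that changed, none had an unadjusted p under 0.05, and none was called by DESeq2 or limma-voom. This group holds Rab3a, Rab3b and Rab3c, which act on synaptic and dense core vesicles, Rab26, which links synaptic vesicles to autophagy, and Rab37, a Rab of secretory granules. Rab3a differed by a log2FC of -0.09 ± 0.09 (SE; adjusted p = 0.47 by edgeR's quasi-likelihood test), and 24m replicate 1 had the highest of the 8 values and 24m replicate 4 the lowest. Its sign depended on the scaling, since library sizes alone gave 0.0081 and quantile normalization 0.097 with limma-voom and 0.11 with DESeq2. Rab3b had 122, 143, 148 and 116 CPM at 6m and 128, 117, 131 and 137 CPM at 24m, and Rab3c had 13.5, 16.3, 24.9 and 18.8 CPM at 6m and 24.4, 20.8, 11.5 and 16.9 CPM at 24m. Their log2FC of -0.03 ± 0.13 and -0.03 ± 0.29 (SE) were within the spread of the libraries, the groups overlapped for both, and library sizes alone turned both positive, to 0.071 and 0.078. Rab3d, the remaining Rab3 gene, was too rare to test, with 3, 0, 3 and 2 counts at 6m and 3, 3, 9 and 3 counts at 24m.

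Rab26 differed by 0.11 ± 0.19 and Rab37, just above the count minimum, by 0.75 ± 0.46 on the log2 scale (SE). The whole group added up to 1615, 1617, 1588 and 1606 CPM at 6m and 1696, 1521, 1488 and 1399 CPM at 24m. These sums overlapped between the ages, and Rab3a made up most of each of them.

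Both Rab6 genes, which serve the Golgi, rose. Rab6a (ENSMUSG00000030704, chr7:100256571-100291110, plus strand), the main Rab of the Golgi and of transport from it to the ER, had 57.9, 83.2, 83.4 and 51.5 CPM at 6m and 111, 131, 143 and 178 CPM at 24m. Rab6b (ENSMUSG00000032549, chr9:102988943-103062475, plus strand), a relative expressed mainly in brain, had 23.4, 34.4, 31.1 and 33.9 CPM at 6m and 47.3, 67.6, 98.5 and 59.1 CPM at 24m. All 4 aged libraries lay above all 4 young ones for both genes. Rab6a rose with log2FC 1.06 ± 0.17 (SE), edgeR quasi-likelihood Benjamini-Hochberg adjusted p = 8.1e-05. Rab6b rose with log2FC 1.16 ± 0.21 (SE), edgeR quasi-likelihood Benjamini-Hochberg adjusted p = 0.00037. Both were called in each of the 18 alternative fits.

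Rab1b (ENSMUSG00000024870, chr19:5149214-5157137, minus strand), which serves transport from the ER to the Golgi, had 114, 95.8, 85.9 and 104 CPM at 6m and 166, 174, 175 and 121 CPM at 24m. It rose without overlap of the ages, with log2FC 0.65 ± 0.14 (SE), edgeR quasi-likelihood Benjamini-Hochberg adjusted p = 0.0021, and 24m replicate 4 had the lowest of the aged values. Its close relative Rab1a, with the same role, had 62.8, 81.4, 85.9 and 62.8 CPM at 6m and 60.97, 84.2, 72.9 and 102 CPM at 24m. Rab1a was not called, with a log2FC of 0.17 ± 0.17 (SE) and overlapping libraries.

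Rab2a (ENSMUSG00000047187, chr4:8535463-8609673, plus strand), a Rab of the ER-Golgi intermediate compartment, had 68.9, 110.3, 89.6 and 74.1 CPM at 6m and 85.4, 122, 147 and 175 CPM at 24m. 24m replicate 1 lay among the young libraries, so the groups overlapped, and the gene rose with log2FC 0.67 ± 0.18 (SE), edgeR quasi-likelihood Benjamini-Hochberg adjusted p = 0.0093. Without 24m replicate 4 its log2FC was 0.51, below the minimum of 0.58. Its rare relative Rab2b (ENSMUSG00000022159, chr14:52499215-52517002, minus strand) had 1, 0, 3 and 5 counts at 6m and 7, 10, 8 and 11 counts at 24m, with the 6m libraries at or below 5 counts and the 24m libraries at or above 7. Rab2b rose with log2FC 1.65 ± 0.50 (SE), edgeR quasi-likelihood Benjamini-Hochberg adjusted p = 0.02, on few counts. It passed the count minimum only through the 24m libraries, where it is high, with 36 counts there against 9 at 6m. Rab2b was still called with no filter on low counts, and lost the call in 4 of its 15 alternatives. By the same edgeR test its adjusted p was 0.081 without 6m replicate 1 and 0.052 without 6m replicate 2, at log2FC of 1.38 and 1.37, in a range of 0.0090 to 0.081 over the 14 alternatives with an adjusted p. DESeq2 on quantile-normalized counts gave none, and DESeq2 gave 0.072.

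The other tested genes of this group were not called. Rab18, a Rab of the ER and lipid droplets, had a log2FC of 0.59 ± 0.23 (SE) with an adjusted p of 0.06 by edgeR's quasi-likelihood test. It was called in 5 of 18 alternatives: without 24m replicate 1 (0.74), without 6m replicate 2 (0.75), on library sizes alone (0.70), with no filter on low counts (0.61) and with more than 5 counts required in every library (0.64). Rab33a, a Golgi Rab also linked to autophagy, had -0.11 ± 0.17 and Rab34, which acts in ciliogenesis and lysosome positioning, -0.51 ± 0.24 on the log2 scale (SE). Rab36 had 0.22 ± 0.41, Rab40b 0.44 ± 0.26 and Rab40c 0.32 ± 0.30 on the same scale, the last pair being adaptors of a ubiquitin ligase. In all, 5 of 12 tested genes of the ER and Golgi group changed (41.7%, beside 34.2% of the tested Rab genes and 14.5% of all tested genes), and its summed level was 499.7, 602, 523 and 501 CPM at 6m and 658, 790.1, 846 and 825 CPM at 24m, without overlap.

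Early endosome Rabs rose in part. Rab5b (ENSMUSG00000000711, chr10:128512885-128532251, minus strand), one of the 3 Rab5 genes that control fusion of early endosomes, had 8.62, 7.23, 7.47 and 28.9 CPM at 6m and 53.3, 42.6, 47.3 and 28.4 CPM at 24m. Of the young libraries, 6m replicate 4 lay far above the rest and level with 24m replicate 4, so the groups overlapped by these 2 values. Rab5b rose with log2FC 1.61 ± 0.32 (SE), edgeR quasi-likelihood Benjamini-Hochberg adjusted p = 0.00093. Leaving out 6m replicate 4 raised its log2FC to 2.39, and the call held in all 17 alternatives that kept the gene.

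Rab5c (ENSMUSG00000019173, chr11:100603932-100629041, minus strand), the most abundant Rab5 gene, had 138, 118, 134 and 129 CPM at 6m and 204, 192, 178 and 209 CPM at 24m. The ages were far apart beside their spread, but the difference was small, with log2FC 0.59 ± 0.12 (SE), edgeR quasi-likelihood Benjamini-Hochberg adjusted p = 0.00079, only just above the minimum of 0.58. Removing a trend with transcript length took it to 0.48, and leaving out 6m replicate 2 or 24m replicate 4 to 0.56 or 0.57, below that minimum. DESeq2 on quantile-normalized counts gave 0.578, which also ended the call. Rab5a, which has the same role, was not called, with 27.1, 36.2, 34.8 and 16.3 CPM at 6m and 18.3, 43.7, 29.4 and 46.8 CPM at 24m. The ages overlapped for Rab5a, at a log2FC of 0.37 ± 0.26 (SE).

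Rab31 (ENSMUSG00000056515, chr17:65958723-66079839, minus strand), which acts between the trans-Golgi network and endosomes, had 13.5, 3.62, 7.47 and 10.05 CPM at 6m and 19.8, 20.8, 33.3 and 23.01 CPM at 24m. Young values were all below aged ones, and the gene rose with log2FC 1.40 ± 0.33 (SE), edgeR quasi-likelihood Benjamini-Hochberg adjusted p = 0.0035. Rab21, a Rab of integrin traffic, and Rab22a, a Rab of early endosomes close to Rab31, had log2FC of 0.45 ± 0.20 and 0.16 ± 0.28 (SE) and were not called. Rab21 was called, at 0.65, without 6m replicate 3. The early endosome group thus had 3 of 6 tested genes changed and higher (50%, beside 31.6% of the tested Rab genes and 10.3% of all tested genes), and its sum was 230.2, 215, 248 and 235 CPM at 6m and 354, 367, 357 and 375 CPM at 24m, without overlap.

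Among the Rabs of recycling endosomes and the plasma membrane, 3 of 9 tested genes changed (33.3%, beside 34.2% of the tested Rab genes and 14.5% of all tested genes), all higher. Rab15 (ENSMUSG00000021062, chr12:76844732-76869699, minus strand), an endosomal Rab found mainly in neurons, had 17.2, 12.7, 9.96 and 18.8 CPM at 6m and 27.4, 34.3, 55.03 and 32.98 CPM at 24m. Rab35 (ENSMUSG00000029518, chr5:115769948-115785795, plus strand), which acts in fast recycling and neurite growth, had 16, 27.1, 23.6 and 26.4 CPM at 6m and 33.5, 40.5, 61.4 and 48.3 CPM at 24m. The aged libraries lay above the young ones for both, and in each case 24m replicate 3 was highest. Rab15 rose with log2FC 1.32 ± 0.27 (SE), edgeR quasi-likelihood Benjamini-Hochberg adjusted p = 0.0012. Rab35 rose with log2FC 1.01 ± 0.22 (SE), edgeR quasi-likelihood Benjamini-Hochberg adjusted p = 0.0024.

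Rab10 (ENSMUSG00000020671, chr12:3297425-3360026, minus strand), which carries vesicles to the axon and dendrite membrane, had 17.2, 18.1, 24.9 and 20.1 CPM at 6m and 25.9, 39.5, 30.7 and 46.02 CPM at 24m. It rose without overlap, though the lowest aged value was close to the highest young one, with log2FC 0.86 ± 0.24 (SE), edgeR quasi-likelihood Benjamini-Hochberg adjusted p = 0.011. Without 24m replicate 4 its adjusted p was 0.054 by the same edgeR test, at a log2FC of 0.71. Over all its alternatives the adjusted p ranged from 0.0025 to 0.083, the highest being that of DESeq2 on quantile-normalized counts.

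Rab11b, the main Rab of recycling endosomes in brain, shows the effect of the fold minimum. It had 207, 213, 246 and 196 CPM at 6m and 289.6, 283, 280.2 and 272 CPM at 24m. The ages did not overlap and the aged values were tight, yet the difference was log2FC 0.38 ± 0.10 (SE), edgeR quasi-likelihood Benjamini-Hochberg adjusted p = 0.01, below the minimum of 0.58, so it was not called. Rab11a, its more widely expressed relative, had 0.13 ± 0.17, and Rab14, which acts between endosomes and the Golgi, had 0.01 ± 0.16 on the log2 scale (SE). Rab8a, which serves cilia and exocytosis, had 0.41 ± 0.20, and its libraries overlapped by a narrow margin.

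Rab4b and Rab4a, which serve fast recycling from early endosomes, had negative values that were not called. Rab4b had 175, 141, 154 and 181 CPM at 6m and 136, 160.1, 111 and 137 CPM at 24m, and its log2FC was -0.26 ± 0.13 (SE), with overlapping groups. An annotated read-through gene on the same strand, Gm21983, shares 1280 of the 1997 exon bases of Rab4b and had counts of its own, which rose by a log2FC of 0.75 ± 0.17 (SE). How reads were divided between these genes is not given in the sources used here, so the value of Rab4b is uncertain. Rab4a had a log2FC of -0.18 ± 0.16 (SE).

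Of 6 tested Rabs of late endosomes and lysosomes, 2 changed (33.3%, beside 34.2% of the tested Rab genes and 14.5% of all tested genes), 1 in each direction. Rab7 (ENSMUSG00000079477, chr6:87976083-88022295, minus strand), the Rab of late endosomes, lysosomes and long-range axonal transport, had 117, 146, 139 and 103 CPM at 6m and 171, 186, 192 and 225 CPM at 24m. The ages did not overlap, and Rab7 rose with log2FC 0.63 ± 0.13 (SE), edgeR quasi-likelihood Benjamini-Hochberg adjusted p = 0.0012. Its log2FC was 0.55 without 6m replicate 4 and 0.56 without 24m replicate 4, below the minimum.

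Rab24 (ENSMUSG00000034789, chr13:55466132-55469793, minus strand), an unusual Rab with low GTPase activity that acts in the clearance of autophagic compartments, had 176, 119, 178 and 169.5 CPM at 6m and 136, 92.5, 93.4 and 109.7 CPM at 24m. The young values were high apart from 6m replicate 2, which lay below 24m replicate 1, so the groups overlapped. Rab24 fell with log2FC -0.60 ± 0.15 (SE), edgeR quasi-likelihood Benjamini-Hochberg adjusted p = 0.0045. The size of this fall lay at the minimum, and the call was lost in 8 of 18 alternatives, with log2FC between -0.70 and -0.48 and adjusted p from 0.00029 to 0.030 over all 18. It was lost without 6m replicate 1 (-0.55), 6m replicate 3 (-0.54), 6m replicate 4 (-0.57), 24m replicate 2 (-0.53) and 24m replicate 3 (-0.54).

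Rab24 shares 1310 of its 3491 exon bases with Prelid1 on the opposite strand, which had a mean count of 307 and a log2FC of -0.30 ± 0.097 (SE), not called. Since the use of strand in counting is not given in the sources used here, reads of the overlap cannot be assigned to either gene with certainty.

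The other tested genes of this group were not called. Rab28, a Rab of cilia and photoreceptors, had -0.17 ± 0.15, Rab12, a regulator of receptor degradation, 0.44 ± 0.20 and Rab9, which returns receptors from late endosomes to the Golgi, -0.03 ± 0.26 on the log2 scale (SE). Rab29, which recruits LRRK2 to the Golgi and lysosomes, had 14, 9, 4 and 6 counts at 6m and 9, 7, 3 and 5 counts at 24m, with overlapping ages, at a log2FC of -0.75 ± 0.46 (SE). The summed level of this group overlapped between the ages, with 469, 476, 495 and 427 CPM at 6m and 473, 444, 462 and 529 CPM at 24m.

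Sequences upstream of the start are shown for 3 genes that rose in all of their alternatives and for Rab3a, to set genes that moved together beside the most abundant one. Each is the 250 bases before the first base annotated for any transcript of the gene, read from the GRCm39 genome, 5′ to 3′ along the gene's strand. The windows of these 4 genes hold 0 bases of annotated exons. Capitals mark matches, on either strand, to the GC box with the letters GGGCGG, the CCAAT box with the letters of its name, the E-box with the letters CACGTG, the cAMP response element with the letters TGACGTCA and the TATA box with the letters TATAAA. The windows lie at chr7:100256321-100256570 on the plus strand for Rab6a, chr9:102988693-102988942 on the plus strand for Rab6b, chr12:76869700-76869949 on the minus strand for Rab15 and chr8:71206988-71207237 on the plus strand for Rab3a.
Rab6a: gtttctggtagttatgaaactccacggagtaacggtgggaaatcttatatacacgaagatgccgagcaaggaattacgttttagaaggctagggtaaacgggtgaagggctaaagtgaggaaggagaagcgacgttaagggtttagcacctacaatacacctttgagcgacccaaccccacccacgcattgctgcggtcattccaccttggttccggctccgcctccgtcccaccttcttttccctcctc
Rab6b: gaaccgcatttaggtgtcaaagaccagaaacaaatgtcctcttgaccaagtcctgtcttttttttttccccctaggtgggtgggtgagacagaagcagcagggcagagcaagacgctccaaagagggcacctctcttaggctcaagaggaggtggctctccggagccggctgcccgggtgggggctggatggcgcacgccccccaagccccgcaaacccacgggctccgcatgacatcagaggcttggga
Rab15: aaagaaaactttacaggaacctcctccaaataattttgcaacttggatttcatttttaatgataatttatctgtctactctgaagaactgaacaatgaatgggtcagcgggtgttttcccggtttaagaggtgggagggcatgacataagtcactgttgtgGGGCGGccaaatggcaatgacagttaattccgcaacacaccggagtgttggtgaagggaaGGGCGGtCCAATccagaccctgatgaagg
Rab3a: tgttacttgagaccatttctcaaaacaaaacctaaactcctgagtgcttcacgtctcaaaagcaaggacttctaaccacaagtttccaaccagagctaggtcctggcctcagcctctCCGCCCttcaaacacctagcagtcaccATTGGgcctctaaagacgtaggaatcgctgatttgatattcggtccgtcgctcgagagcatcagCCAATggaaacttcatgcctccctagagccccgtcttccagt

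Rab15 held 2 matches to the GC box and 1 to the CCAAT box, Rab3a 1 and 2, and Rab6a and Rab6b no match to any of the 5 motifs. Over the 38 tested Rab genes, 18 windows (47.4%) held the CCAAT box and 14 (36.8%) the GC box, against 35.0% and 38.3% of the windows of the 9349 tested genes with an annotated start. Of the 12 Rab genes that rose, 7 held the CCAAT box and 4 the GC box. Not all counted windows are free of exons. Among the 12, those of Rab35, Rab5c, Rab1b, Rab2b, Rab10 and Rab5b held 227, 227, 183, 175, 170 and 28 bases of annotated exons, and the rest held 0. Windows of some other Rab genes, such as Rab24 and Rab8a, held 250. The TATA box was in 3 Rab windows (7.89%) and 8.16% of all, the E-box in 1 (2.63%) and 7.20% of all, and the cAMP response element in 0 and 1.54% of all. With windows before the start of the canonical transcript, 18 Rab windows (47.4%) held the CCAAT box and 21 (55.3%) the GC box, against 35.9% and 48.6% of all, so the GC box differs with the start that is used. A match is a match of letters only, and the shares were not tested.

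Rab subfamilies, in which near relatives share a role, were compared by the share of each gene in the counts of its subfamily, as a description with no test. Rab5b made up 4.96, 4.49, 4.23 and 16.5% at 6m and 19.3, 15.3, 18.6 and 10% at 24m of Rab5 counts, so that 3 of the young libraries lay at or below 4.96% and the aged ones at or above 10%. Rab5c was the most abundant of the 3 genes in every library, at 79.4, 73.03, 76.1 and 74.1% at 6m and 74.03, 69.03, 69.8 and 73.5% at 24m. Rab6b made up 28.8, 29.2, 27.2 and 39.7% at 6m and 29.8, 34.03, 40.7 and 24.9% at 24m of Rab6 counts. Both Rab6 genes rose, and their proportions overlapped between the ages.

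Rab1b made up 64.6, 54.1, 50 and 62.4% at 6m and 73.2, 67.3, 70.6 and 54.3% at 24m of Rab1 counts, with the highest 3 values in aged libraries and 24m replicate 4 among the young. Rab3a made up between 88.3% and 91.2% of Rab3 counts in every library. Within Rab11, Rab11b averaged 75.1% (SD 3.31) in young and 78.7% (SD 3.59) in aged libraries, 4 of each, a difference about as large as the spread.

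**Figure D3:**
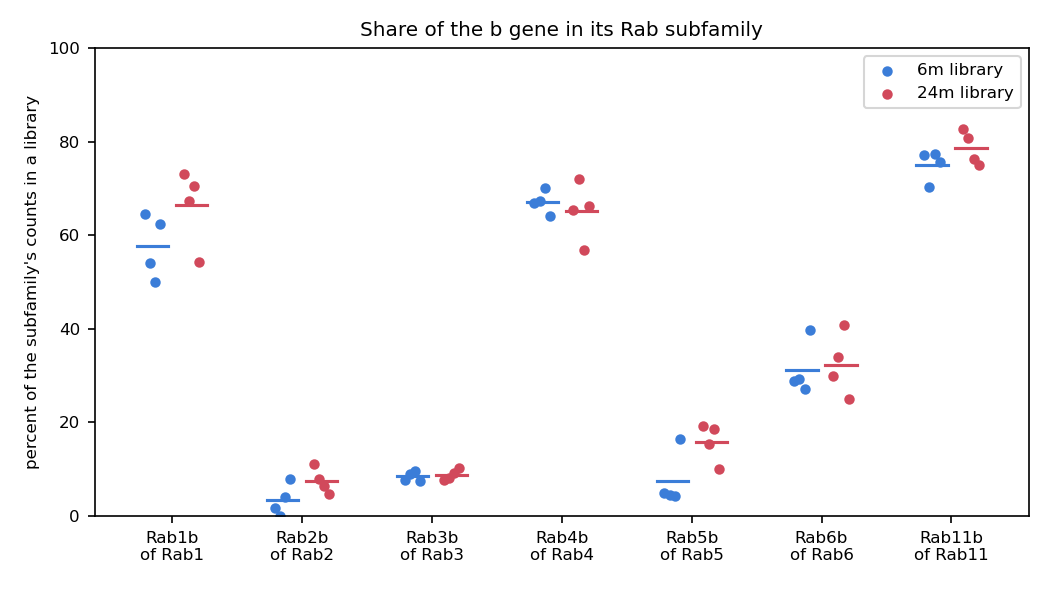
Share of the b gene in the counts of its Rab subfamily, in percent, for each library (points) with the mean of each age (lines). The share of Rab5b in Rab5 averages 7.56% at 6m and 15.8% at 24m with 1 young library inside the aged range, while those of Rab3b, Rab4b, Rab6b and Rab11b overlap.

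Summed over all 59 genes, Rab mRNA reached 3489.5, 3568, 3556 and 3483 CPM at 6m and 3920.4, 3913, 3996 and 3937 CPM at 24m. No 6m library reached the lowest 24m library, and the ratio of the means was 1.12. On library sizes alone the ratio was 1.20, where the median log2FC of all tested genes was 0.10. The Rab sum without Rab3a averaged 2116 CPM (SD 59.0) over the 4 young and 2622 CPM (SD 146) over the 4 aged libraries, a wider gap than with Rab3a included.

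Of the 14 Rab genes listed as LRRK2 substrates, 11 were tested and 4 changed (36.4%, beside 34.2% of the tested Rab genes and 14.5% of all tested genes), all higher: Rab5b, Rab5c, Rab10 and Rab35. The list's median log2FC was 0.41. Its summed level was 1851, 1886, 1845 and 1841 CPM at 6m and 2075, 1920.3, 1896 and 1811 CPM at 24m, mostly Rab3a, and overlapped between the ages. The kinase Lrrk2 itself had 5, 8, 5 and 10 counts at 6m and 5, 8, 5 and 17 counts at 24m, and the phosphatase Ppm1h, which removes its marks from Rabs, 5, 3, 12 and 9 counts at 6m and 7, 15, 6 and 7 counts at 24m. Neither was called by edgeR, DESeq2 or limma-voom or had an unadjusted p under 0.05, at log2FC of -0.03 ± 0.40 and -0.02 ± 0.41 (SE), where the standard errors leave room for a moderate change either way.

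Regulators and effectors of Rabs were read from a list. Of its 132 genes, 79 were tested and 14 changed (17.7%), 11 of them higher and 3 lower, beside 14.5% of all tested genes. The median log2FC of the 79 was 0.086. Among the 11, Tbc1d14, Tbc1d30, Rin1 and Rabif passed the count minimum only through the 24m libraries, where they are high, so the share of 17.7% leans on the filter. With no filter on low counts 16 of 130 changed, beside 9.17% of all tested genes. In the 4 classes that hold 73 of the 79, 4 of 23 tested GEFs, 6 of 22 GAPs, 4 of 26 effectors and 0 of 2 kinases and phosphatases changed by edgeR's test. Of the last 2, none had an unadjusted p under 0.05 or was called by DESeq2 or limma-voom. The count of changed regulators and effectors was 9 without 24m replicate 3 and 16 without 24m replicate 1, where 10.6% and 16.8% of all tested genes changed.

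Gdi2 and Rabac1, whose proteins act in the cycle of Rabs between membrane and cytosol, stayed below the fold minimum. Gdi2, a widely expressed GDI gene, had 108, 136, 116 and 111 CPM at 6m and 140.2, 143, 145 and 201 CPM at 24m, and Rabac1, a membrane protein that frees Rabs from GDI, had 782, 783, 758 and 789.9 CPM at 6m and 724, 689, 613 and 599.8 CPM at 24m. Aged libraries were higher for Gdi2 and lower for Rabac1 without overlap. Their log2FC were 0.45 ± 0.14 and -0.25 ± 0.09 (SE), with adjusted p of 0.022 and 0.043 by edgeR's quasi-likelihood test, and neither was called by DESeq2 or limma-voom.

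Mon1a and Ccz1, subunits of the Rab7 exchange factor, fell. Mon1b, a relative of Mon1a, was not tested, with 0, 0, 3 and 1 counts at 6m and 3, 6, 2 and 5 counts at 24m. Mon1a had 57.9, 61.5, 59.7 and 71.6 CPM at 6m and 30.5, 37.4, 34.6 and 30.7 CPM at 24m. Ccz1, its partner in the complex that brings Rab7 to late endosomes, had 35.7, 32.5, 42.3 and 37.7 CPM at 6m and 18.3, 18.7, 17.9 and 23.01 CPM at 24m. Every aged library was below every young one for both genes. Mon1a fell with log2FC -0.91 ± 0.17 (SE), edgeR quasi-likelihood Benjamini-Hochberg adjusted p = 0.00039. Ccz1 fell with log2FC -0.91 ± 0.22 (SE), edgeR quasi-likelihood Benjamini-Hochberg adjusted p = 0.004. Both calls held in all 18 alternatives, while Rab7 mRNA itself rose.

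Rin1, an exchange factor for Rab5 expressed in forebrain neurons, had 4.92, 7.23, 7.47 and 3.77 CPM at 6m and 21.3, 15.6, 20.5 and 9.97 CPM at 24m. It rose without overlap, with log2FC 1.46 ± 0.40 (SE), edgeR quasi-likelihood Benjamini-Hochberg adjusted p = 0.01. Rin1 passed the count minimum only through the 24m libraries, where it is high, with 58 counts there against 17 at 6m. Its call held with no filter on low counts. Rabif, which binds and stabilizes nucleotide-free Rabs, also rose, with log2FC 1.13 ± 0.39 (SE), edgeR quasi-likelihood Benjamini-Hochberg adjusted p = 0.039, higher in all 4 aged libraries but on 68 counts in total, and lost the call in 9 of 17 alternatives. It likewise passed the count minimum through the 24m libraries, with 50 counts there against 18 at 6m. With no filter on low counts it was still called (log2FC 1.15, adjusted p = 0.049 by edgeR's quasi-likelihood test). The call ended without 6m replicate 1, 2 or 4 or 24m replicate 3 or 4 (log2FC 0.86, 1.11, 1.27, 1.08 and 1.10), over adjusted p from 0.025 to 0.16 across its alternatives.

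Of 22 tested GAPs, 6 rose (27.3%, beside 10.3% of all tested genes). Among the 6, Tbc1d14 and Tbc1d30 passed the count minimum only through the 24m libraries, where they are high. Tbc1d14, which binds Rab11 in autophagy, had 3, 1, 3 and 1 counts at 6m and 11, 18, 11 and 15 counts at 24m, and Tbc1d30, a GAP of Rab8 in cilia, had 2, 0, 2 and 0 counts at 6m and 5, 10, 9 and 15 counts at 24m. Since no 6m library exceeded 3 counts of either, their fitted fold changes are not given, but the counts of both were higher in every aged library. In total Tbc1d14 and Tbc1d30 had 8 and 4 counts at 6m against 55 and 39 at 24m. Their adjusted p were 0.00043 and 0.001 by edgeR's quasi-likelihood test, and 3.5e-05 and 0.00015 with no filter on low counts. DESeq2 on quantile-normalized counts gave no adjusted p for Tbc1d30.

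Sgsm1 and Sgsm2, GAPs with RUN and TBC domains, had 19.7, 16.3, 13.7 and 22.6 CPM at 6m and 32.01, 35.3, 39.7 and 26.1 CPM at 24m, and 12.3, 10.8, 14.9 and 13.8 CPM at 6m and 30.5, 31.2, 35.8 and 15.3 CPM at 24m, respectively. Both rose without overlap, with log2FC of 0.84 ± 0.24 and 1.04 ± 0.30 (SE; adjusted p = 0.015 and 0.015 by edgeR's quasi-likelihood test). Evi5l, a further TBC protein, had 41.8, 23.5, 31.1 and 35.2 CPM at 6m and 54.9, 42.6, 58.9 and 55.2 CPM at 24m, and rose without overlap, with log2FC 0.65 ± 0.19 (SE), edgeR quasi-likelihood Benjamini-Hochberg adjusted p = 0.015, a call lost in 4 of 18 alternatives: without 6m replicate 2 (log2FC 0.56), with the length trend removed (0.55) and in both DESeq2 fits, over adjusted p from 0.0056 to 0.069. Tbc1d20, a GAP of Rab1, rose with log2FC 0.98 ± 0.30 (SE), edgeR quasi-likelihood Benjamini-Hochberg adjusted p = 0.02, with 24m replicate 1 inside the young range, and its call was lost in 6 of 18 alternatives.

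Sgsm1, Sgsm2 and Tbc1d20 each lost the call in some alternatives. With all libraries kept, DESeq2 and DESeq2 on quantile-normalized counts did not call Sgsm1 or Tbc1d20, and limma-voom with quantile normalization did not call Sgsm2. Sgsm1 lost its call without 6m replicate 3 (log2FC 0.73) or 24m replicate 3 (0.76), and Sgsm2 without 24m replicate 2 (0.97) or 24m replicate 3 (0.90). Tbc1d20 lost its call without 6m replicate 1 (0.92), 6m replicate 3 (0.92), 24m replicate 2 (0.89) or 24m replicate 3 (0.89). The adjusted p over their alternatives ranged from 0.0070 to 0.068 for Sgsm1, 0.0013 to 0.078 for Sgsm2 and 0.0043 to 0.14 for Tbc1d20.

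Among effectors, the largest rise was in Rab11fip5, a Rab11 partner in recycling endosomes, which had 7.39, 3.62, 12.4 and 11.3 CPM at 6m and 36.6, 25.99, 37.1 and 23.01 CPM at 24m. Rph3a (rabphilin), the Rab3a effector on synaptic vesicles, had 73.9, 52.4, 51.03 and 79.1 CPM at 6m and 113, 162, 154 and 80.5 CPM at 24m. Aged libraries were above young ones for both, though 24m replicate 4 of Rph3a was close to the highest young value. Rab11fip5 rose with log2FC 1.69 ± 0.31 (SE), edgeR quasi-likelihood Benjamini-Hochberg adjusted p = 0.00043. Rph3a rose with log2FC 0.96 ± 0.20 (SE), edgeR quasi-likelihood Benjamini-Hochberg adjusted p = 0.0011.

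Rab11fip3, a further Rab11 partner, had 20.9, 19.9, 12.4 and 16.3 CPM at 6m and 22.9, 36.4, 42.2 and 30.7 CPM at 24m, and rose without overlap, with log2FC 0.94 ± 0.25 (SE), edgeR quasi-likelihood Benjamini-Hochberg adjusted p = 0.0096, a call lost only with DESeq2 on quantile-normalized counts, over adjusted p from 0.0023 to 0.056 in its 18 alternatives. Myo5a, the actin motor that Rabs recruit to vesicles, had 48, 25.3, 68.5 and 42.7 CPM at 6m and 33.5, 22.9, 25.6 and 26.8 CPM at 24m. Its groups overlapped because 6m replicate 2 lay with the aged libraries, and it fell with log2FC -0.82 ± 0.23 (SE), edgeR quasi-likelihood Benjamini-Hochberg adjusted p = 0.013. Its log2FC was -0.56 without 6m replicate 3, and the call was also lost without 24m replicate 2 (-0.74).

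**Figure D4:**
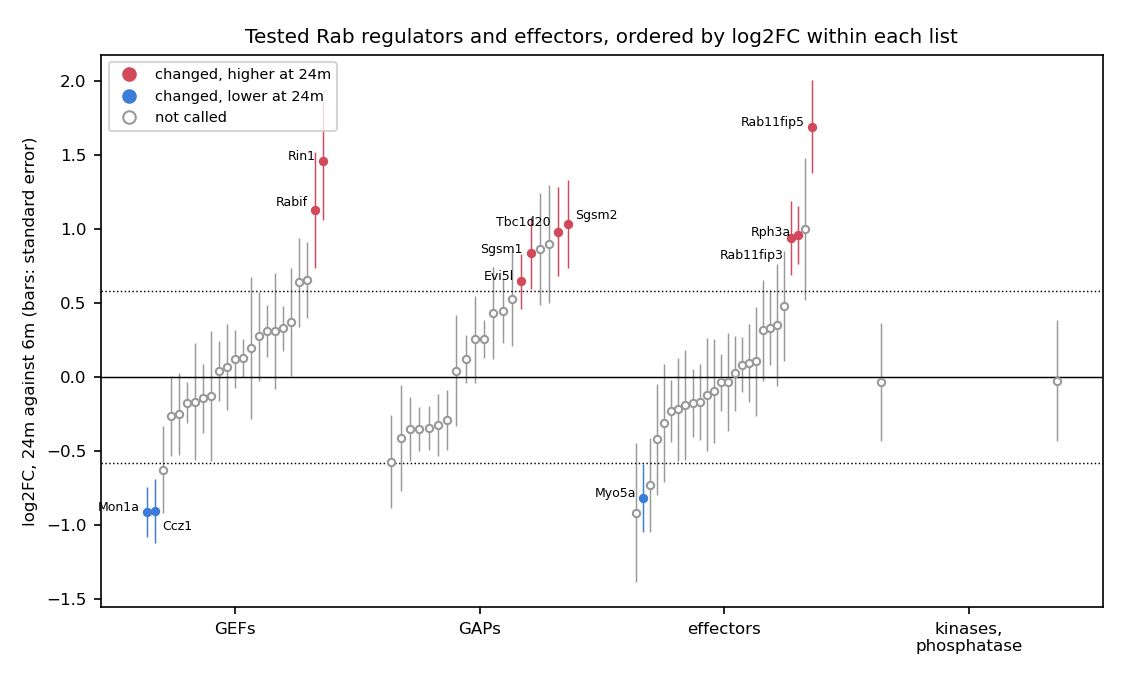
Log2FC between 24m and 6m, with standard errors, of the tested GEFs, GAPs, effectors, kinases and phosphatases, sorted within each class; genes with at most 3 counts in every library of an age are left out. Mon1a, Ccz1 and Myo5a are the 3 changed genes below 0, and the highest point is Rab11fip5 at 1.69.

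Transcript length moved with the comparison. Over all tested genes the Spearman correlation of log2FC with the length of the canonical transcript was 0.13 (n = 9349 genes) and over the tested Rab genes 0.41 (n = 38 genes), where all genes share the same 8 libraries. The correlation of length with a library's deviation from the mean of all libraries was between -0.10 and 0.0025 in the 6m libraries, -0.063 in 24m replicate 1 and between 0.10 and 0.20 in the other 24m libraries. The Rab genes that rose had a median length of 3486 bases, from 1969 to 5068, and the other tested Rab genes 2582 bases.

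By length, 1.75% of all tested genes over 1000 and up to 1500 bases changed and were higher, 4.50% of those up to 2000, 9.52% of those up to 3000, 14.5% of those up to 4000 and 15.3% of those up to 6000 bases. Up to 1000 bases the share was 6.17%, and above 6000 bases 10.1% changed and were higher and 10.2% lower. In the 5 classes from 1000 to 6000 bases 0 of 4, 1 of 6, 3 of 9, 6 of 10 and 2 of 5 Rab genes rose, and none of the 4 above 6000 bases did. Rab3a (1443 bases) and Rab24 (1203 bases) belong to the short classes. With the length trend of each library removed, an alternative chosen after seeing the data, 10 Rab genes changed, all higher, with a median log2FC of 0.28, and 13.4% of all tested genes changed, while 8.76% of all tested genes changed and were higher. Rab24, Rab2a and Rab5c lost their calls in that fit, at log2FC of -0.48, 0.55 and 0.48. These lay below the fold minimum in size, while the adjusted p stayed under 0.05. The part of length in the other differences was not tested.

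**Figure D5:**
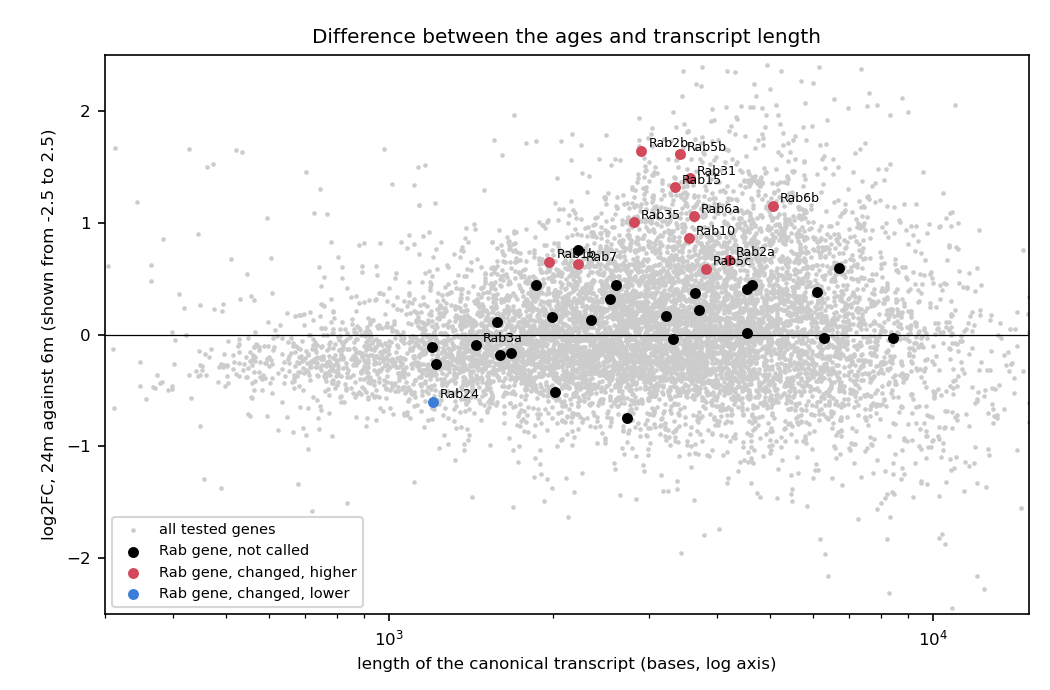
Log2FC between 24m and 6m against the length of the canonical transcript (log axis) for all tested genes in grey and the Rab genes in colour. The 12 Rab genes that rose have transcripts of 1969 to 5068 bases, and Rab3a and Rab24 are among the shortest.

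Some cell markers also differed between the ages. Of 5 tested astrocyte markers, 3 rose (Gfap, Slc1a3 and Gja1) and Slc1a2 fell, beside 10.3% of all tested genes higher and 4.17% lower. The oligodendrocyte marker Mbp rose, while some others of its list were not called. Of 6 neuronal markers 1 rose (16.7%, Snap25), while 5 had an adjusted p of 0.05 or less by edgeR's quasi-likelihood test. Among these 5, Tubb3 was lower, and Rbfox3 had separate ages at a log2FC of 0.52 ± 0.17 (SE), below the fold minimum. Of 5 microglial markers none was called by edgeR, DESeq2 or limma-voom, though 4 had an unadjusted p under 0.05. Of these C1qa and C1qc had adjusted p of 0.012 and 0.0042 by edgeR's quasi-likelihood test and separate ages, and lay below the fold minimum, at log2FC of 0.47 ± 0.13 and 0.50 ± 0.12 (SE). The astrocyte markers, led by Aldoc, added up to 2638, 2231, 2405 and 2721 CPM at 6m and 2989, 2522, 2364 and 2277 CPM at 24m, and the microglial markers, led by C1qa, to 665, 705, 727 and 733 CPM at 6m and 1062, 834, 896 and 828 CPM at 24m. The sums of microglial markers did not overlap between the ages, and those of astrocyte markers did.

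All 4 haemoglobin genes fell, beside 4.17% of all tested genes that changed and were lower. None of the 2 tested genes each of oligodendrocyte progenitors, endothelial cells and choroid plexus was called by edgeR's test, beside 14.5% of all tested genes. In each of these 3 lists 1 gene had an unadjusted p under 0.05. Olig1 and Ly6c1 had adjusted p of 0.0049 and 0.015 by that test and separate ages, and missed only the fold minimum, at log2FC of 0.5799 and -0.5778. DESeq2 called 1 progenitor gene and limma-voom 1 endothelial gene. Oligodendrocyte progenitor markers, led by Olig1, added up to 98.5, 94.03, 89.6 and 114 CPM at 6m and 131, 143, 170.2 and 135 CPM at 24m. Endothelial markers, led by Ly6c1, added up to 117, 84.98, 112 and 105 CPM at 6m and 91.5, 67.6, 90.9 and 62.1 CPM at 24m, and choroid plexus markers, led by Ttr, to 4206, 2808, 2902 and 3946 CPM at 6m and 4332, 3983, 2173 and 2394 CPM at 24m. No listed marker was at 0 in all libraries, but Cx3cr1, Flt1 and Pdgfra had mean counts of 0.625, 0.750 and 1.25. The part of these markers in the Rab differences was not tested.

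The remaining 21 Rab genes lay at or under a mean count of 5. Just inside the minimum were Rab2b with a mean count of 5.63 and Rab37 with 6.63, and just outside it Rab30 with 4.25 and Rab39b with 3.75. Rab33b, a Golgi Rab of autophagosome formation, had 0, 1, 2 and 0 counts at 6m and 0, 8, 5 and 11 counts at 24m, which was not tested in the main fit. Rab27b and Rab27a, the Rabs of dense core granules and lysosome-related organelles, had 17 and 2 counts in total, and Rab32 and Rab38, which act in melanosomes, 11 and 6. Rab8b, Rab9b, Rab42 and Rab39 had 4, 4, 4 and 3 counts in total, and Rab19 and Rab44 had 1 count each. Rab13, Rab20, Rab23 and Rab43 had 26, 16, 16 and 12 counts in total. Rab17, Rab25 and Rab7b, of which the first pair are known from epithelia, had no count in any library. In 1 library a count of 0 allows up to 3 counts, which correspond to between 2.30 and 5.43 CPM in these libraries.

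Exons of other annotated genes touch many Rab genes. Of the 38 tested, 26 share exon bases with a gene on the opposite strand and 4 with one on the same strand, and of the 13 that changed, 7 and 0 do. Rab6a shares 736 of 4710 exon bases with Mrpl48, whose log2FC was -0.24 ± 0.12 (SE), opposite in sign to that of Rab6a. Rab2b shares 2470 of 5586 with Gm43766, which is not in the table, and Rab10 shares 842 of 3909 with the antisense gene Rab10os, likewise not in it. Comparing Rab canonical transcripts with every annotated transcript, with 95% identity or more over 50% or more of the Rab transcript, found matches for 3 tested Rab genes, Rab4b, Rab24 and Rab2b, all to the overlapping genes named above. For these, reads cannot be assigned with certainty.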

How the data were processed

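The authors made the deposited raw counts per gene by mapping reads to GRCm39 with minimap2 (version 2.24 in the sample notes) and counting with featureCounts. Strand, overlap and multi-mapping settings are not given in the sources used here. Symbols, lengths and starts came from GENCODE vM39, which matched 22281 of 22430 identifiers. The Rab genes and all gene lists were chosen with earlier results of these data known.

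All genes of the table whose mean count exceeded 5 entered the test of edgeR 4.0.16 (quasi-likelihood, TMM, age as the only term) in R 4.3.3, with Benjamini-Hochberg adjustment. Every Rab gene is named, and all 8 values are given for changed ones, the 6 of highest mean CPM and the Rab3 genes. Changed regulators and effectors are named, up to 12 in full. Other genes were picked once their values were known. Where no library of an age exceeded 3 counts, no fold change is given. Alternatives used other scaling factors, limma 3.58.1 (voom), DESeq2 1.42.0, other count filters, a replicate block, an adjusted p alone and each library left out. Removal of a length trend was added after seeing the data. Copies were searched with BLAST+ 2.17.0. Floors cover counting error only. Some of the planned results are not reported here.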

Additional observations from a re-analysis of the deposited data

Results flagged for a closer look

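Within a group of 4 libraries, a value is given here if its gap to the nearest other library takes up most of the range of the group, by Dixon's 95% limit, which chance passes in about 1 of 20 groups. Of 110 groups examined 7 passed it, where chance gives about 5.5. The explanations of these values were not tested.

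The total count of 6m replicate 2 was 573000, against 819000 to 844000 in the other young libraries. The same library had 119 CPM of Rab24, against 170 to 178 CPM in the other young libraries. Rab5b, in 6m replicate 4, stood at 28.9 CPM, against 7.23 to 8.62 CPM.

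Among aged libraries, 24m replicate 1 had 25.9 CPM of Rab18, against 46.0 to 49.9 CPM, and 24m replicate 3 had 24.3 CPM of Rab22a, against 15.6 to 16.9 CPM. In 24m replicate 4, Rab1b had 121 CPM, against 166 to 175 CPM, and Ccz1 had 23.0 CPM, against 17.9 to 18.7 CPM.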

How the results depend on the processing

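Of the 13 Rab genes that changed, 7 were called in all of their alternatives (Rab1b, Rab5b, Rab6a, Rab6b, Rab15, Rab31 and Rab35) and 6 lost the call in at least 1 (Rab2a, Rab2b, Rab5c, Rab7, Rab10 and Rab24). None of the 13, and none of the 14 changed regulators and effectors, reversed its sign in any alternative, and 6 of those 14 kept the call in all. Rab18 and Rab21 were called in at least 1 alternative that kept the fold minimum. Depth limits the rare genes: Rab2b could not be fitted in 3 of the 18 alternatives.

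DESeq2 called 834 genes (629 higher, 205 lower) in place of 1359 (968 higher, 391 lower), with 12 Rab genes. DESeq2 on quantile-normalized counts called 821 (558 higher), 10 Rab genes at a median log2FC of 0.28, and 8 regulators and effectors. Library sizes alone gave 223 genes lower, 0 Rab genes lower, 13 higher, a median of 0.48 and a summed ratio of 1.20; more than 5 counts in every library gave 222 genes and 0 Rab genes lower; an adjusted p alone gave 883 genes lower and 14 Rab genes changed, Rab11b among them, beside 21.7% of all tested genes. No filter gave 15 changed Rab genes out of 56, beside 9.17% of all tested genes, and a median of 0.44. With the length trend removed, 0 Rab genes were lower and the median was 0.28. Of changed genes 71.2% were higher, against 84.5% on library sizes alone, which moved the median of all tested genes to 0.10, and 59.2% with limma-voom. The causes were not tested.

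Leaving out each library in turn gave 989 to 1594 changed genes (713 to 1132 higher, 276 to 462 lower), 8 to 14 changed Rab genes (7 to 13 higher, 0 to 1 lower), 9 to 16 regulators and effectors, a median Rab log2FC of 0.27 to 0.45 and a summed ratio of 1.11 to 1.12.

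Signs turned only among 7 Rab genes that were not called. On library sizes alone log2FC was 0.0081 for Rab3a, 0.071 for Rab3b, 0.078 for Rab3c and 0.076 for Rab9. With limma-voom it was 0.097 for Rab3a, -0.0023 for Rab14 and -0.13 for Rab36, and with DESeq2 on quantile-normalized counts 0.11 for Rab3a. With more than 5 counts in every library it was 0.014 for Rab3b, 0.017 for Rab3c and 0.021 for Rab9. With the length trend removed it was -0.11 for Rab14, 0.011 for Rab33a and 0.013 for Rab3c. Leaving out libraries gave -0.066 to 0.082 for Rab14, -0.087 to 0.035 for Rab3b, -0.15 to 0.17 for Rab3c, -0.20 to 0.13 for Rab9 and -0.050 to 0.54 for Rab36.

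Replicate numbers did not pair the samples, since deviations of same-numbered libraries correlated at 0.065, -0.010, 0.0051 and -0.16. With a replicate block, 1308 genes, 13 Rab genes (12 higher) and 14 regulators and effectors changed, and the median Rab log2FC was 0.35.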

Other observations

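Genes named after Rabs but outside the rule were looked at after their values were seen. The Rab-like genes Rabl2 and Rabl6 had log2FC of 0.37 ± 0.31 and -0.13 ± 0.14 (SE), Ift27, a Rab-like protein of intraflagellar transport, -0.24 ± 0.17, and Rab5if, a membrane protein named for its tie to Rab5, -0.12 ± 0.13. Rabepk, a partner of Rab9, had -0.39 ± 0.19. None was called, and the libraries of the ages overlapped for all 5.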
